A study of Homo sapiens with 60 samples.

Results

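The aminoacyl-tRNA synthetase genes make up 37 of the 60675 Ensembl gene identifiers measured in this series. The rule takes them by symbol and uses no measured value, but the set was proposed with earlier results of these data known. The cytosolic class holds 21 genes, among them AIMP1 and AIMP2, which encode scaffold proteins of the multi-tRNA synthetase complex and not synthetases. The mitochondrial class holds 16 genes whose symbols end in 2. All 37 passed the low-count filter and were among the 18601 genes tested.

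Each synthetase joins 1 amino acid to its transfer RNA, the step that supplies ribosomes with charged tRNA. Cytosolic and mitochondrial ribosomes draw mostly on separate sets of enzymes, both encoded in the nucleus; GARS1 and KARS1 are exceptions that give rise to cytosolic and mitochondrial forms, and they are counted here with the cytosolic class. Many cytosolic synthetase genes are known targets of ATF4, a transcription factor that is made when the kinases of the initiation factor eIF2alpha sense amino acid shortage or endoplasmic reticulum stress, and that binds C/EBP-ATF response elements.

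Messenger RNA was sequenced from SW1783, an established human astrocytoma cell line, after 24 h with ethanol extracts of herbs or of multi-herb formulas. Doses ran 1.2, 6 and 30 µg/mL for Polygalae Radix and 6.4, 32 and 160 µg/mL for Aucklandiae Radix. The other 6, the herbs Menthae Herba and Saposhnikoviae Radix and the formulas Guibi-tang, Saengmaek-san, Okbyeongpung-san and Soyo-san, were each given at 20, 100 and 500 µg/mL. Okbyeongpung-san had 1 library per dose. Soyo-san, Aucklandiae Radix and Polygalae Radix had 2 per dose; Guibi-tang, Saengmaek-san, Saposhnikoviae Radix and Menthae Herba had 3, as did the vehicle, DMSO. Per the series text a high dose under 500 µg/mL was set by a growth inhibition test, so the extracts were not given at matched doses, and growth was not measured in the files analysed here. The same 3 vehicle libraries were the reference of every extract and came from a library-name set of their own, so set and extract cannot be told apart in a comparison with vehicle. A comparison of the high with the low dose stays inside a set and uses no vehicle library.

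Library totals ran from 19031094 to 37686975 expected counts. In 10 of the 60 libraries counts were shifted towards short transcripts (slope of log2 deviation on log2 transcript length below -0.15). Saengmaek-san (replicate 1 at all 3 doses) and Saposhnikoviae Radix (1 high-dose and 2 low-dose libraries) had 3 each, Guibi-tang had 2 (replicate 2 at the low and medium dose), and the high doses of Okbyeongpung-san and Menthae Herba (replicate 3) had 1 each. No high-dose library of Polygalae Radix, Guibi-tang, Aucklandiae Radix or Soyo-san was among them. Of the astrocyte and glioma markers, VIM, CD44, SOX9, SLC1A3 and NES were detected, with vehicle means from 7.63 to 5220 CPM (read counts scaled to a common library size), whereas GFAP, S100B, AQP4 and ALDH1L1 did not exceed 0.381 CPM in any library. The neuronal genes SYT1 and SNAP25 (25.3 and 30.1 CPM in vehicle) and the leukocyte gene PTPRC (10.4 CPM) were detected too, while CD3E, ITGAM, RBFOX3, STMN2 and the epithelial and hepatocyte markers stayed below 1 CPM.

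In vehicle the cytosolic genes were the more abundant class. Per kilobase of the longest coding transcript their median level was 51.7 CPM (range 16.8 to 84.8), against 8.38 CPM (range 2 to 52.8) for the mitochondrial genes, and 18 of the 20 highest levels were cytosolic. IARS1, the isoleucyl enzyme, was the highest at 84.8 ± 2.81 CPM per kilobase (SD, n = 3), followed by GARS1, the glycyl enzyme, at 80.3 ± 2.10, SARS1, the seryl enzyme, at 79.7 ± 1.60, and WARS1, the tryptophanyl enzyme, at 77.5 ± 2.68. The intervals of 1 SD around GARS1, SARS1 and WARS1 overlapped, and that of IARS1 overlapped only that of GARS1. The mitochondrial genes among the top 20 were CARS2, for cysteine, at 52.8 ± 2.34 and IARS2, for isoleucine, at 36.7 ± 0.472. MARS2, the mitochondrial methionyl enzyme, was the lowest at 2 ± 0.0854 CPM per kilobase, below PARS2, for proline, at 3.33 ± 0.205 and WARS2, for tryptophan, at 3.65 ± 0.205. All levels below are TMM-scaled CPM per gene without division by length, relative to the other genes of the library, and in bulk RNA fewer cells expressing a gene and less of its RNA per cell cannot be told apart. Fold changes are log2 values from edgeR's quasi-likelihood fit. The SE given with a fold change was derived from the F statistic, as the absolute log2 fold change over the square root of F. A gene was called at an adjusted p under 0.05 over all 18601 genes.

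**Figure D1:**
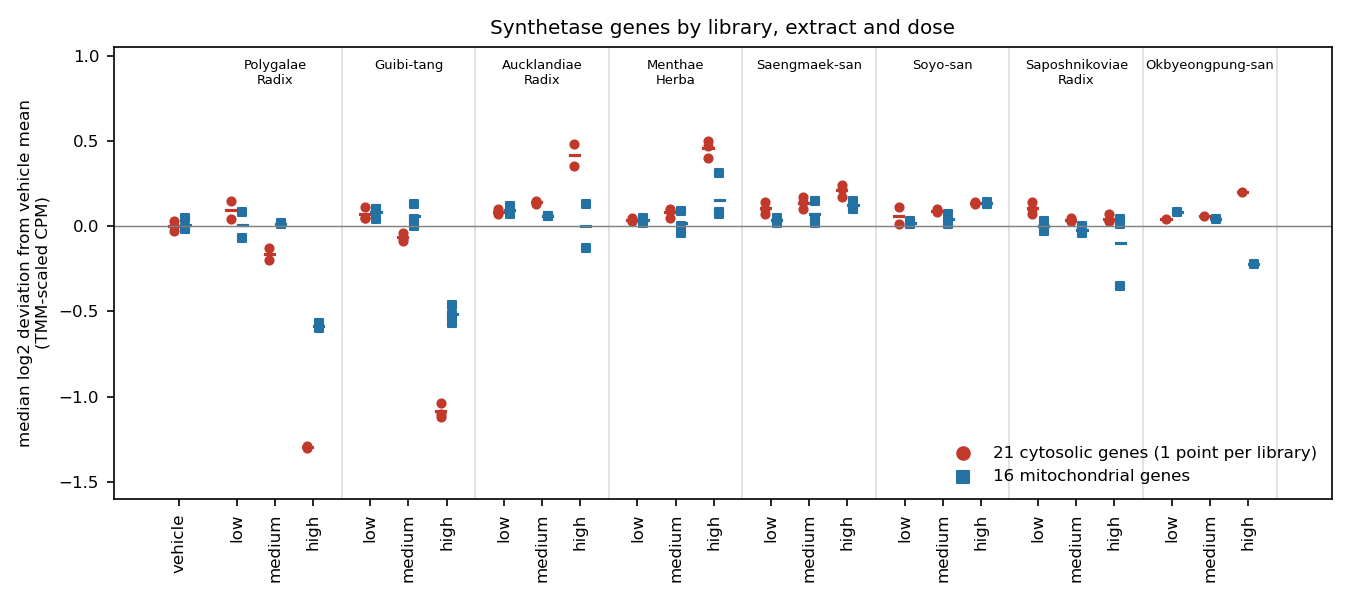
The vertical axis gives, for each library, the median over the 21 cytosolic genes (red circles) or the 16 mitochondrial genes (blue squares) of the log2 deviation from the vehicle mean; short bars are group means. Cytosolic medians were -1.29 and -1.30 at the high dose of Polygalae Radix and -1.12, -1.10 and -1.04 at that of Guibi-tang, and 0.35 to 0.50 at the high doses of Aucklandiae Radix and Menthae Herba.

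At the high dose of Polygalae Radix all 21 cytosolic genes fell, and at the high dose of Guibi-tang, a formula, all 21 fell as well. Mitochondrial genes fell less broadly: 11 of 16 fell with Polygalae Radix and 9 of 16 with Guibi-tang, and in both extracts 1 mitochondrial gene, PARS2, rose. The median log2 fold change of the cytosolic class was -1.32 with Polygalae Radix and -1.07 with Guibi-tang, against -0.58 and -0.52 for the mitochondrial class. The background was wide in both comparisons. With Polygalae Radix 50.0% of all genes tested were called and 26.3% were called lower, with a median over all genes of 0.0348; with Guibi-tang 52.2% were called and 27.7% were called lower, with a median of 0.0198. Since every cytosolic member had more than 40 CPM in vehicle, the 5404 genes at or above that level are a closer background, and of these 47.3% fell with Polygalae Radix (median -0.33) and 48.8% with Guibi-tang (median -0.32).

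EPRS1, which encodes the fused glutamyl- and prolyl-tRNA synthetase, showed the largest fall with Polygalae Radix. Its level was 223, 228 and 229 CPM in vehicle, 207 and 228 CPM at the low dose of Polygalae Radix, 120 and 128 CPM at the medium dose and 29.3 and 29.8 CPM at the high dose. No library of the medium or high dose reached the vehicle range, and the fall was deeper at the high dose. The log2 fold change was -2.94 ± 0.10 at the high dose over vehicle (adjusted p = 4.67e-25) and -0.87 ± 0.09 at the medium dose (adjusted p = 1.76e-08), whereas the low dose differed by -0.06 ± 0.09 (adjusted p = 0.873). With Guibi-tang EPRS1 had 231, 204 and 223 CPM at the low dose, 171, 152 and 177 CPM at the medium dose and 49.4, 49.1 and 47.1 CPM at the high dose. Here too the medium and high doses lay below every vehicle library, with log2 fold changes of -0.44 ± 0.08 (adjusted p = 0.000245) and -2.23 ± 0.08 (adjusted p = 4.37e-24). EPRS1 lies at chr1:219968601-220046658 (GRCh38, GENCODE release 29) and overlaps no other coding gene.

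VARS1, the valyl enzyme, was the largest fall with Guibi-tang. High-dose libraries of Guibi-tang held 37.9, 37.4 and 39.9 CPM and those of Polygalae Radix 35.0 and 31.0 CPM, against 217, 210 and 210 CPM in vehicle. The high-dose levels of the 2 extracts were far below vehicle and close to each other. The log2 fold changes were -2.47 ± 0.09 with Guibi-tang (adjusted p = 1.53e-24) and -2.68 ± 0.10 with Polygalae Radix (adjusted p = 3.64e-23), and at the medium doses -0.55 ± 0.08 (adjusted p = 2.59e-05) and -0.93 ± 0.10 (adjusted p = 1.76e-08). AARS1, the alanyl enzyme, had 207, 203 and 209 CPM in vehicle, 199 and 207 CPM at the low dose of Polygalae Radix, 152 and 159 CPM at the medium dose and 52.4 and 49.4 CPM at the high dose. Its log2 fold change at the high dose was -2.02 ± 0.07 (adjusted p = 1.39e-25). WARS1 had 71.7, 67.6 and 77.2 CPM at the high dose of Guibi-tang, against 239, 248 and 232 CPM in vehicle, a log2 fold change of -1.73 ± 0.07 (adjusted p = 3.78e-23). The other cytosolic falls ranged from -1.94 (QARS1, glutamine) to -0.82 (AIMP2 and NARS1, asparagine) with Polygalae Radix and from -1.69 (QARS1) to -0.50 (AIMP2) with Guibi-tang. For each cytosolic gene no high-dose library of either extract overlapped the vehicle libraries. Such separation was common with so few libraries, and its share over all genes was not computed. At the high dose of Soyo-san 17 of 21 cytosolic and 14 of 16 mitochondrial genes did not overlap vehicle, though 2 and 0 were called.

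The genes of the multi-tRNA synthetase complex, in which several cytosolic enzymes are held together by scaffold proteins, spanned nearly the whole range. Among its enzymes the falls with Polygalae Radix were deepest for EPRS1, QARS1 (-1.94) and LARS1, for leucine (-1.76), and shallower for KARS1, for lysine (-1.10), and RARS1, for arginine (-0.97). Its scaffolds AIMP1 and AIMP2 fell by 0.91 and 0.82 on the log2 scale.

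Within the mitochondrial class AARS2, the alanyl enzyme, fell most with Polygalae Radix. It had 12.3 and 12.6 CPM at the high dose, against 31.6, 29.5 and 31.1 CPM in vehicle (log2 fold change -1.31 ± 0.11, adjusted p = 4.01e-13), and 17.6, 16.0 and 15.9 CPM at the high dose of Guibi-tang (-0.90 ± 0.09, adjusted p = 1.19e-10). LARS2, the leucyl enzyme, had 22.8 and 22.3 CPM at the high dose of Polygalae Radix, against 44.6, 42.4 and 43.3 CPM in vehicle (-0.94 ± 0.13, adjusted p = 9.04e-08). SARS2, the seryl enzyme, had 8.63, 8.02 and 8.99 CPM at the high dose of Guibi-tang, against 23.7, 21.3 and 19.1 CPM in vehicle (-1.32 ± 0.17, adjusted p = 2.18e-08). In each of these 3 genes the high-dose libraries lay below every vehicle library. SARS2 overlaps MRPS12, a mitochondrial ribosomal protein gene on the opposite strand, and the strand setting of the counting is not given in the sources used here. It also overlaps the coding gene ENSG00000269547 on the same strand, where strand cannot separate the reads. The level of that gene was not examined. MRPS12 had 32.5 ± 1.14 CPM at the high dose of Guibi-tang and 34.4 ± 3.23 CPM in vehicle (SD, n = 3 each), a log2 difference of -0.08 ± 0.29 (adjusted p = 0.831).

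PARS2, the mitochondrial prolyl enzyme, went the other way. It had 13.2 and 11.2 CPM at the high dose of Polygalae Radix and 13.5, 13.8 and 12.3 CPM at that of Guibi-tang, against 7.45, 8.36 and 7.63 CPM in vehicle. Every high-dose library was above the vehicle range. The rise was 0.64 ± 0.11 with Polygalae Radix (adjusted p = 7.95e-06) and 0.76 ± 0.10 with Guibi-tang (adjusted p = 5.29e-08). HARS2, for histidine, MARS2 and CARS2 were not called in either comparison: their log2 fold changes were -0.12 ± 0.11, 0.24 ± 0.20 and -0.22 ± 0.19 with Polygalae Radix and 0.07 ± 0.10, 0.26 ± 0.18 and -0.31 ± 0.17 with Guibi-tang.

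**Figure D2:**
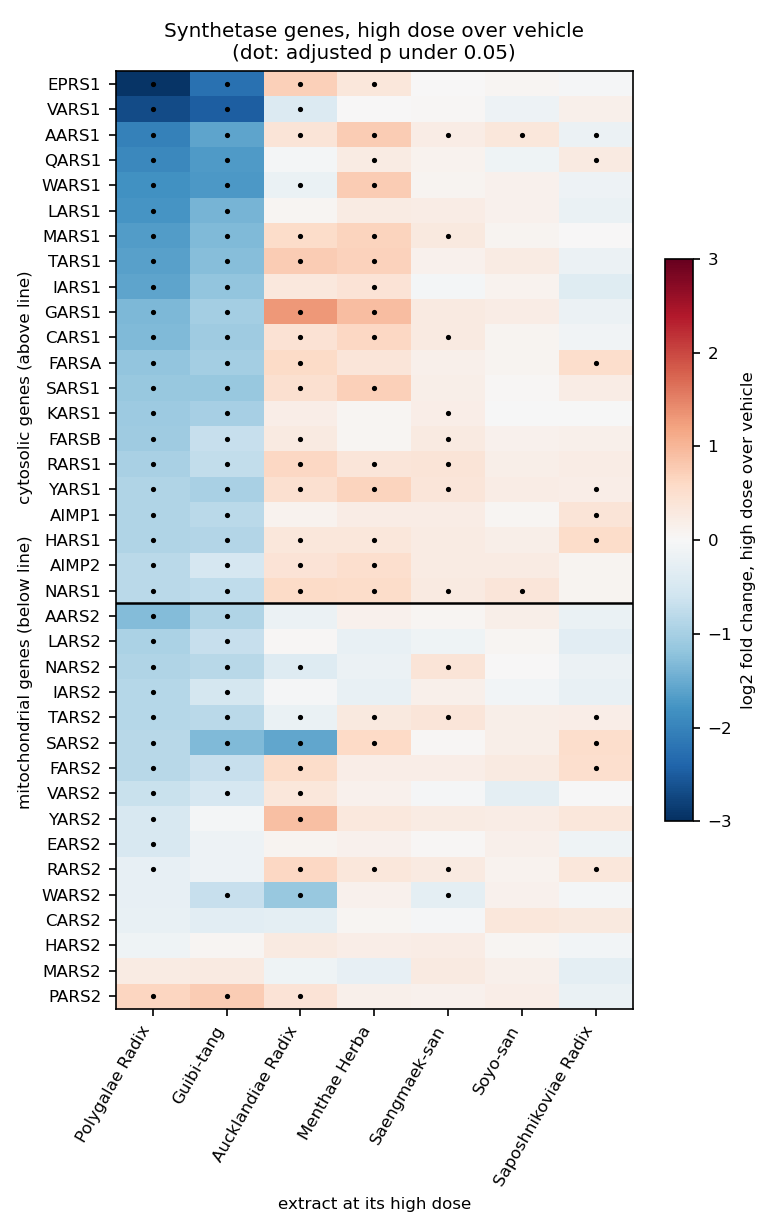
Colour gives the log2 fold change of each of the 37 genes (rows; cytosolic above the line) at the high dose over vehicle for 7 extracts (columns), and a dot marks an adjusted p under 0.05. The Polygalae Radix and Guibi-tang columns are blue for all 21 cytosolic genes, with EPRS1 at -2.94 and VARS1 at -2.47, and PARS2 is red in both.

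Falls were also called when high dose was set against low dose, where no vehicle library is used. With Polygalae Radix 47.7% of all genes were called in this comparison, and all 21 cytosolic genes and 12 mitochondrial genes fell; with Guibi-tang 53.2% of all genes were called, and all 21 cytosolic and 11 mitochondrial genes fell. PARS2 rose by 0.58 ± 0.12 with Polygalae Radix (adjusted p = 0.000168) and by 0.91 ± 0.10 with Guibi-tang (adjusted p = 7.72e-10). Of the 37 genes, 31 fell in both extracts, 21 cytosolic and 10 mitochondrial, where 22.2% of all genes and 43.1% of the genes at or above 40 CPM in vehicle did so. Across the 37 genes the high over low dose log2 fold changes of Polygalae Radix and Guibi-tang had a Pearson r of 0.94 (0.94 within the cytosolic and 0.88 within the mitochondrial class). These comparisons share no library, but the genes are not independent replicates, and the usual recipe of Guibi-tang holds both Polygalae Radix and Aucklandiae Radix.

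The 2 classes shifted against each other with dose in Polygalae Radix, Guibi-tang, Aucklandiae Radix and Menthae Herba. The ratio of summed cytosolic to summed mitochondrial CPM, a share within each library and not a level per length, averaged 6.34 ± 0.116 in vehicle (SD, n = 3). It averaged 6.70 ± 0.0648 at the low dose of Polygalae Radix, 5.34 ± 0.148 at the medium dose and 3.28 ± 0.0882 at the high dose (n = 2 each). With Guibi-tang it averaged 6.14 ± 0.271 at the low dose, 5.72 ± 0.381 at the medium dose and 3.53 ± 0.126 at the high dose (n = 3 each). High-dose libraries of these extracts ran from 3.21 to 3.64, below the 6.21 to 6.44 of the vehicle libraries. In the other direction, the ratio averaged 6.26 ± 0.0963, 6.52 ± 0.375 and 8.48 ± 0.653 at the low, medium and high dose of Aucklandiae Radix (n = 2 each), and 6.35 ± 0.0197, 6.63 ± 0.157 and 8.62 ± 0.623 with Menthae Herba (n = 3 each). Every high-dose library of Aucklandiae Radix (8.02 and 8.95) and Menthae Herba (7.99 to 9.23) was above the vehicle range. The classes differ in level (vehicle medians 158 and 24.5 CPM). Genes at or above 40 CPM had median changes of -0.33 with Polygalae Radix and -0.32 with Guibi-tang, but -0.00221 with Aucklandiae Radix and -0.0836 with Menthae Herba. How far level alone moved the ratio was not tested. In vehicle CARS2 and IARS2 averaged 99.2 and 131 of the 548 summed mitochondrial CPM.

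**Figure D3:**
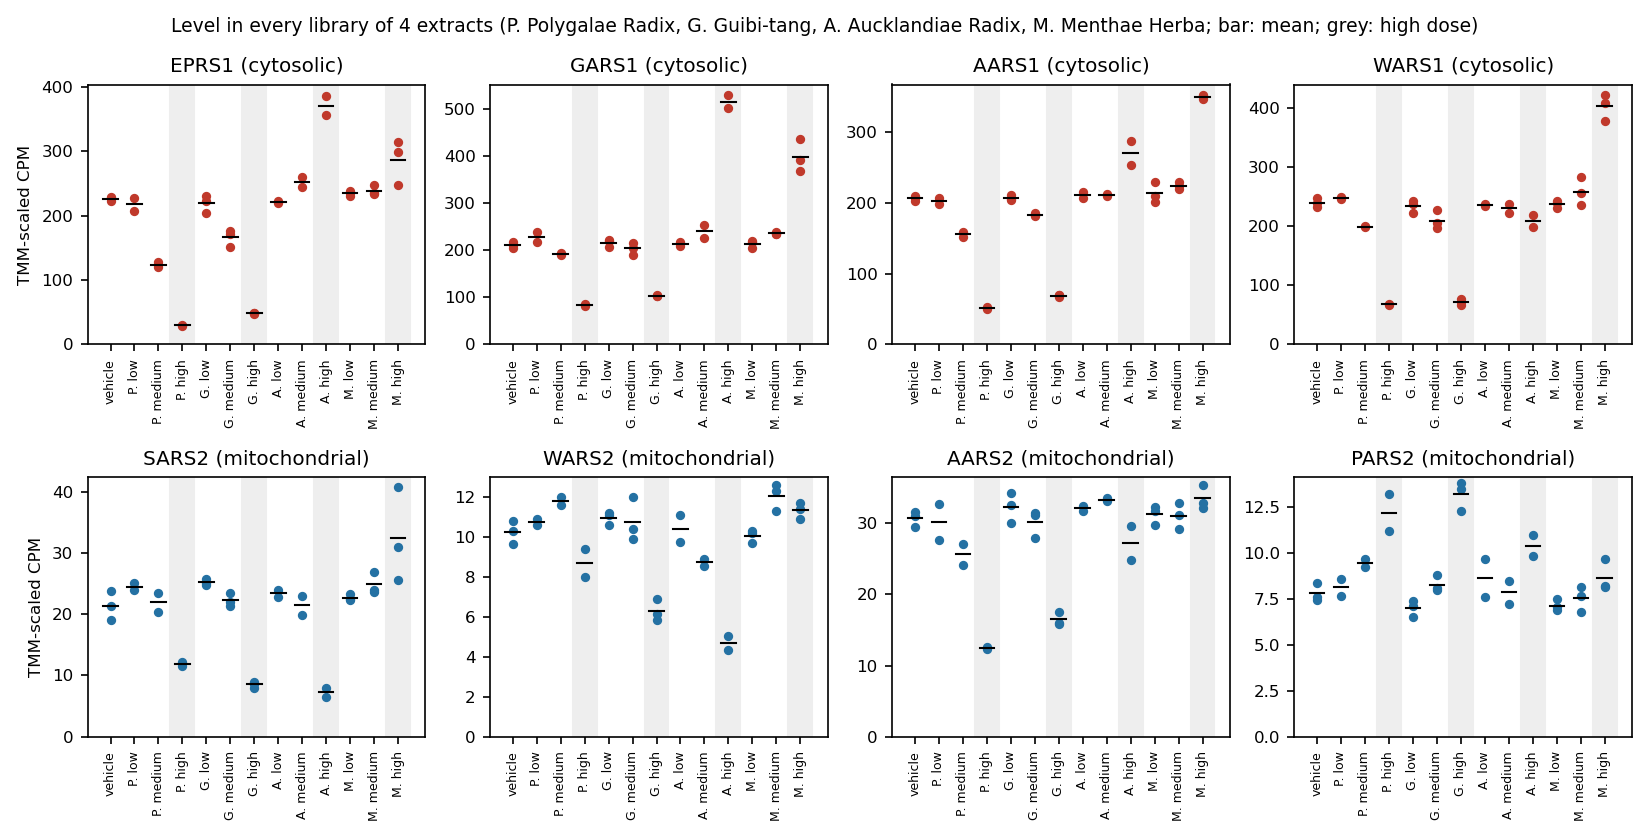
Each panel shows 1 gene's TMM-scaled CPM in every library of vehicle and of the low, medium and high doses of Polygalae Radix (P.), Guibi-tang (G.), Aucklandiae Radix (A.) and Menthae Herba (M.); bars are group means and grey marks high doses. GARS1 reached 530 CPM with Aucklandiae Radix and lay between 103 and 105 CPM at the high dose of Guibi-tang, while PARS2 was above its vehicle level at the high doses of Polygalae Radix and Guibi-tang.

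Cytosolic synthetase genes rose at the high doses of Aucklandiae Radix and Menthae Herba. With Aucklandiae Radix 14 of 21 rose and 2 fell (median 0.41), in a comparison that called 34.2% of all genes and 16.5% as higher (median of all genes -0.0142). With Menthae Herba 15 of 21 rose and none fell (median 0.41), where 24.0% of all genes were called and 11.2% were called higher (median 0.0235). The mitochondrial class was mixed with Aucklandiae Radix, 5 genes higher and 4 lower (median 0.00), and had 3 genes higher and none lower with Menthae Herba (median 0.14). High against low dose gave 10 cytosolic genes higher and 1 lower with Aucklandiae Radix (25.0% of all genes called) and 12 higher with Menthae Herba (16.5% called).

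GARS1 showed the largest rise in both extracts. It had 530 and 502 CPM at the high dose of Aucklandiae Radix and 391, 437 and 369 CPM at that of Menthae Herba, against 206, 217 and 211 CPM in vehicle. The groups were well apart. Log2 fold changes were 1.29 ± 0.12 (adjusted p = 9.60e-12) and 0.92 ± 0.11 (adjusted p = 1.16e-08). AARS1 had 347, 351 and 352 CPM at the high dose of Menthae Herba, against 207, 203 and 209 CPM in vehicle, with a log2 fold change of 0.76 ± 0.05 (adjusted p = 4.63e-14). TARS1, the threonyl enzyme, had 373 and 381 CPM at the high dose of Aucklandiae Radix, against 217, 229 and 223 CPM in vehicle (0.76 ± 0.15, adjusted p = 0.000103), and EPRS1 had 356 and 386 CPM, against 223, 228 and 229 CPM (0.71 ± 0.09, adjusted p = 1.36e-08). High-dose libraries of these genes were all above vehicle. Against the low dose TARS1 rose by 0.57 ± 0.17 (adjusted p = 0.0101), a call lost in 3 of 4 refits without 1 library (adjusted p from 0.0541 to 0.0674).

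MARS1, the methionyl enzyme, had 213 and 247 CPM at the high dose of Aucklandiae Radix and 239, 234 and 276 CPM at that of Menthae Herba, against 165, 157 and 151 CPM in vehicle. Its log2 fold changes were 0.54 ± 0.07 (adjusted p = 1.00e-07) and 0.66 ± 0.07 (adjusted p = 2.95e-10). The MARS1 gene overlaps DDIT3, an ATF4 target on the opposite strand, which had 51.1 ± 5.35 CPM (n = 2) and 89.0 ± 29.1 CPM (n = 3) in these groups, against 23.5 ± 1.97 CPM in vehicle (SD, n = 3); how far reads of the overlap were assigned to either gene was not tested. With Polygalae Radix MARS1 fell by 1.67 on the log2 scale, while DDIT3 differed by 0.10 ± 0.29 (adjusted p = 0.789).

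WARS1 and VARS1 parted from the other cytosolic genes. WARS1 had 378, 409 and 422 CPM at the high dose of Menthae Herba, against 239, 248 and 232 CPM in vehicle (0.75 ± 0.07, adjusted p = 2.03e-11), but 219 and 199 CPM with Aucklandiae Radix, below the vehicle libraries (-0.20 ± 0.07, adjusted p = 0.0349). The call with Aucklandiae Radix was lost without its high replicate 3 (adjusted p = 0.352) and without vehicle replicates 1 and 2 in turn. VARS1 had 157 and 161 CPM at the high dose of Aucklandiae Radix, against 217, 210 and 210 CPM in vehicle (-0.42 ± 0.09, adjusted p = 0.000466), and it was not called with Menthae Herba. Of the cytosolic genes, LARS1, IARS1, QARS1, KARS1 and AIMP1 were not called with Aucklandiae Radix.

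The mitochondrial genes moved both ways with Aucklandiae Radix. SARS2 fell to 6.51 and 7.95 CPM at the high dose, against 23.7, 21.3 and 19.1 CPM in vehicle (-1.56 ± 0.20, adjusted p = 5.82e-08), while its opposite-strand overlap partner MRPS12 had 46.7 ± 9.14 CPM (n = 2), against 34.4 ± 3.23 CPM (SD, n = 3; 0.44 ± 0.32, adjusted p = 0.306). WARS2 had 4.34 and 5.04 CPM, against 10.8, 9.65 and 10.3 CPM in vehicle (-1.13 ± 0.12, adjusted p = 1.04e-09). YARS2, the tyrosyl enzyme, had 25.8 and 26.8 CPM, against 14.9, 13.2 and 13.8 CPM in vehicle (0.91 ± 0.17, adjusted p = 2.71e-05). RARS2, the arginyl enzyme, had 49.7 and 52.3 CPM, against 33.4, 33.7 and 31.9 CPM (0.63 ± 0.08, adjusted p = 1.08e-07). In these 4 genes no high-dose library overlapped vehicle. RARS2 had 39.9 and 39.6 CPM at the low dose of Aucklandiae Radix, already above vehicle, and high over low dose it rose by 0.36 ± 0.09 (adjusted p = 0.00296).

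Smaller changes in this class were borderline calls that several refits lost. VARS2, the valyl enzyme, had 27.9 and 32.9 CPM at the high dose of Aucklandiae Radix, against 25.0, 21.9 and 25.3 CPM in vehicle (0.33 ± 0.12, adjusted p = 0.0295). Its call was lost without high replicate 3 (adjusted p = 0.347) and without vehicle replicate 2 (0.136). NARS2, the asparaginyl enzyme, had 12.5 and 14.6 CPM, against 18.4, 17.0 and 17.5 CPM (-0.38 ± 0.15, adjusted p = 0.0492), and TARS2, the threonyl enzyme, averaged 21.5 ± 2.07 CPM (SD, n = 2), against 24.9 ± 1.03 CPM (n = 3; -0.21 ± 0.08, adjusted p = 0.0440). Without high replicate 2 their adjusted p was 0.341 and 0.427, and NARS2 lost its call in every refit without 1 library. TARS2 also lost its call without vehicle replicates 1 and 2 in turn (0.128 and 0.0693). With no low-count filter VARS2, NARS2 and TARS2 had adjusted p of 0.0974, 0.132 and 0.364.

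With Menthae Herba SARS2 rose, whereas it fell with Polygalae Radix, Guibi-tang and Aucklandiae Radix. It had 25.5, 30.9 and 40.7 CPM at the high dose, against 23.7, 21.3 and 19.1 CPM in vehicle (0.60 ± 0.17, adjusted p = 0.00633). The value of 40.7 belongs to replicate 3, which is one of the libraries shifted towards short transcripts, and without it the adjusted p was 0.108. TARS2 had 28.6, 30.7 and 32.3 CPM, against 26.0, 24.8 and 24.0 CPM (0.29 ± 0.07, adjusted p = 0.00264). In a fit of Menthae Herba high dose and vehicle alone 10 cytosolic and no mitochondrial genes were called, instead of 15 and 3.

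**Figure D4:**
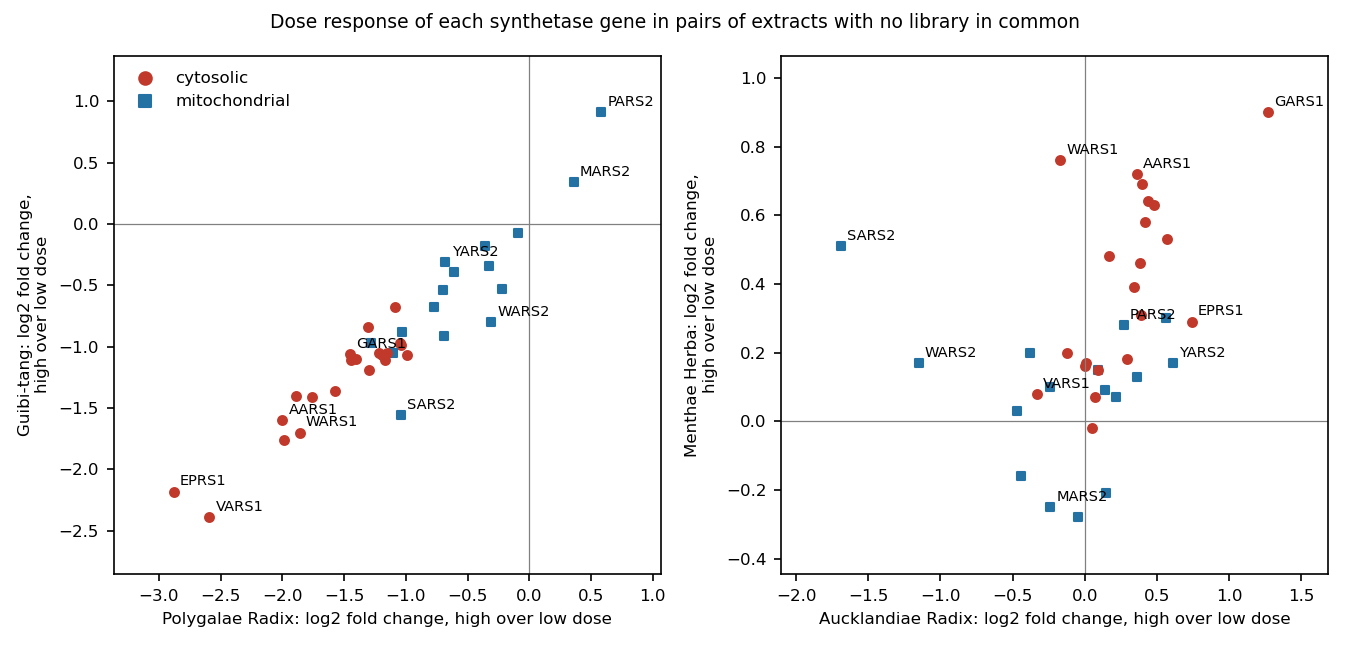
Each point is 1 of the 37 genes, placed by its log2 fold change from low to high dose in a pair of extracts that share no library (left, Polygalae Radix and Guibi-tang; right, Aucklandiae Radix and Menthae Herba). On the left the points follow a line (Pearson r 0.94), from EPRS1 and VARS1 to PARS2; on the right the spread is wide (r 0.35), with GARS1 high in both and SARS2 at -1.69 with Aucklandiae Radix and 0.51 with Menthae Herba.

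Aucklandiae Radix and Menthae Herba matched each other less closely than the falling pair did. Across the 37 genes the high over low dose values had a Pearson r of 0.35 (0.59 within the cytosolic and -0.23 within the mitochondrial class), and 9 cytosolic and 0 mitochondrial genes rose in both. Those 9 genes, AARS1, CARS1, EPRS1, GARS1, MARS1, NARS1, SARS1, TARS1 and YARS1, also fell in both Polygalae Radix and Guibi-tang. Of all 18601 genes 1.89% rose in both Aucklandiae Radix and Menthae Herba, and 0.306% also fell in both other extracts (1.78% and 0.611% of the genes at or above 40 CPM in vehicle).

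Promoter sequence was examined for the letters TGATGNAA on either strand, the core of the C/EBP-ATF response element, because ATF4 is known to bind such elements. RefSeq windows (GRCh38.p14) of 250 bases before to 50 after a start site were matched for 32 of the 37 genes; LARS1, VARS1, YARS1, AARS2 and VARS2 were not matched. The motif was present in a window of 7 of 18 cytosolic genes (38.9%) and 1 of 14 mitochondrial genes (7.14%, YARS2), against 4.46% of 27305 genes with a window. The holders were AARS1, CARS1, GARS1, IARS1, MARS1, NARS1 and TARS1. Shown are the stretches of the 5 holders that were among the most changed genes called against both vehicle and low dose in at least 1 extract, with the motif or its reverse complement in capitals.
AARS1: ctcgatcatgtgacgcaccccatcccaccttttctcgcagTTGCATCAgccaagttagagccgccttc
GARS1: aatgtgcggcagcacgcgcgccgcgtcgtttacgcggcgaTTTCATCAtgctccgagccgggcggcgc
MARS1: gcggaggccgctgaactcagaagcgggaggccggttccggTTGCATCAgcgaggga
TARS1: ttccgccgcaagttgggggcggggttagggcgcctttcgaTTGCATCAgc
CARS1: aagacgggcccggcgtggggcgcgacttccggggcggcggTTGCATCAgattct
They lie at chr16:70289666-70289733 (AARS1, minus strand), chr7:30594805-30594872 (GARS1, plus), chr12:57488024-57488079 (MARS1, plus), chr5:33440927-33440976 (TARS1, plus) and chr11:3057412-3057465 (CARS1, minus). The motif starts 187 bases before the start site in AARS1 and 33 before in GARS1, and touches or follows the start site in MARS1, CARS1 and TARS1. AARS1, MARS1, TARS1 and CARS1 carry TTGCATCA and GARS1 carries TTTCATCA.

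At the high dose of Menthae Herba all 7 holders rose (median 0.66, range 0.41 to 0.92), as did 7 of the 11 cytosolic genes with a window and no motif (median 0.35, range 0.05 to 0.75). With Aucklandiae Radix 6 of 7 holders rose (median 0.54), and of the 11 without the motif 7 rose and 1 fell (median 0.35). With Polygalae Radix and Guibi-tang all 7 holders and all 11 others fell, with medians of -1.59 and -1.10 for Polygalae Radix and -1.19 and -0.99 for Guibi-tang. The letters describe these windows only, and binding was not measured.

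Fewer cytosolic genes were called at the high doses of the remaining extracts. With Saengmaek-san 8 cytosolic genes rose and none fell (median log2 fold change 0.23), and 3 mitochondrial genes rose and 1 fell, where 18.3% of all genes were called. YARS1, the tyrosyl enzyme, had 233, 213 and 221 CPM at the high dose, against 177, 172 and 169 CPM in vehicle (0.36 ± 0.06, adjusted p = 4.63e-05). MARS1 had 193, 189 and 195 CPM, against 165, 157 and 151 CPM (0.29 ± 0.07, adjusted p = 0.00165), and CARS1, for cysteine, 86.0, 85.8 and 84.8 CPM, against 73.2, 72.7 and 68.8 CPM (0.26 ± 0.07, adjusted p = 0.00556). These groups did not overlap. High over low dose YARS1 rose by 0.22 ± 0.06 (adjusted p = 0.0259), MARS1 by 0.25 ± 0.07 (adjusted p = 0.0129) and CARS1 by 0.31 ± 0.07 (adjusted p = 0.00192), in a comparison that called 6.04% of all genes. Leaving out 1 library ended the YARS1 call in 4 of 6 refits (adjusted p from 0.0702 to 0.177) and the MARS1 call in 3 (0.0583 to 0.0767), and with only the compared groups their adjusted p was 0.124 and 0.0605; with no low-count filter YARS1, MARS1 and CARS1 had 0.511, 0.365 and 0.147. WARS2 fell, with 7.56, 8.87 and 8.71 CPM, against 10.8, 9.65 and 10.3 CPM in vehicle (-0.29 ± 0.10, adjusted p = 0.0416). Without Saengmaek-san high replicate 1 the calls against vehicle numbered 8 instead of 12, and WARS2 was not among them (adjusted p = 0.227). The WARS2 call was also lost without high replicate 3 (0.0698) and without each vehicle replicate in turn (0.0513 to 0.144). With only the compared groups its adjusted p was 0.0563, and with no low-count filter 0.27.

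With Saposhnikoviae Radix 5 cytosolic genes rose and 1 fell, and 4 mitochondrial genes rose, where 13.8% of all genes were called. AARS1 fell, with 183, 187 and 177 CPM at the high dose, against 207, 203 and 209 CPM in vehicle (-0.18 ± 0.05, adjusted p = 0.0257). The AARS1 call was lost without high replicate 2 (adjusted p = 0.0525) and without each vehicle replicate in turn (0.0598 to 0.102). It was also lost with only the compared groups (0.717) and with no low-count filter (0.376). High replicate 2 is the library with the steepest shift towards short transcripts: FARSA, a subunit of the phenylalanyl enzyme picked after its values were seen, had 208 CPM there and 95.2 and 98.6 CPM in the other high-dose libraries. Without that library 1 synthetase gene was called instead of 10, and without high replicate 3 there were 20. High against low dose called none of the 37 genes in edgeR's fit or in DESeq2, where 0.398% of all genes were called, and 5 had an unadjusted p under 0.05.

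With Soyo-san AARS1 and NARS1, the asparaginyl enzyme, rose, where 3.07% of all genes were called. AARS1 had 264 and 264 CPM at the high dose, against 207, 203 and 209 CPM in vehicle (0.35 ± 0.06, adjusted p = 0.000184), and 198 and 208 CPM at the low dose (high over low dose 0.38 ± 0.07, adjusted p = 0.000848). The high over low dose call was lost without low replicate 1 (adjusted p = 0.0742), with only the compared groups (0.148) and with no low-count filter (0.746). NARS1 had 190 and 201 CPM at the high dose, but also 192 and 180 CPM at the low dose. With the 3 doses of Okbyeongpung-san averaged, 4 cytosolic genes rose, and 3 mitochondrial genes rose and 1 fell, where 12.1% of all genes were called; without its high-dose library none of the 37 was called.

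Medium and low doses gave few calls in the reported fit. Most of these counts were higher with only the compared groups, with the length slope as a covariate or without the length-shifted libraries. With no low-count filter several were lower. The counts are listed below. At the medium dose 7 cytosolic genes fell with Polygalae Radix (4.77% of all genes called), EPRS1, VARS1, AARS1, QARS1, LARS1, MARS1 and WARS1, from -0.93 to -0.27. With Guibi-tang 3 fell (7.21% called), EPRS1, VARS1 and AARS1. FARSB, the other phenylalanyl subunit, and RARS1 rose at the medium dose of Aucklandiae Radix (4.53% called) and of Saengmaek-san (4.47% called), where RARS2 rose too. No synthetase gene was called at the medium dose of Menthae Herba, Saposhnikoviae Radix or Soyo-san (1.09%, 1.20% and 0.382% called) in edgeR's fit, where 5, 6 and 4 genes had an unadjusted p under 0.05; DESeq2 called 1 in each. At the low dose 7 genes were called with Saposhnikoviae Radix (17.9% called), 2 with Saengmaek-san (4.16%), and 1 each with Polygalae Radix (1.38%), Guibi-tang (2.80%) and Soyo-san (1.74%). RARS1, RARS2 or NARS1 accounted for the calls outside Saposhnikoviae Radix, each of them higher than vehicle. In edgeR's fit none was called at the low dose of Aucklandiae Radix (0.866%) or Menthae Herba (0.538%), where 6 and 3 genes had an unadjusted p under 0.05, and DESeq2 called 3 and 0.

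Differences between extracts were tested inside library-name sets, as the high minus low dose change of one extract less that of the other. Polygalae Radix against Aucklandiae Radix differed in all 21 cytosolic genes, each lower, and in 9 mitochondrial genes, 8 lower and WARS2 higher, where 35.3% of all genes were called. EPRS1 differed most (-3.63 ± 0.14, adjusted p = 2.09e-22), ahead of GARS1 (-2.73 ± 0.18, adjusted p = 3.95e-15). Guibi-tang against Saengmaek-san differed in all 21 cytosolic genes, each lower, and in 11 mitochondrial genes, 10 lower and PARS2 higher, where 36.5% were called, with VARS1 at -2.50 ± 0.12 (adjusted p = 1.07e-19). Menthae Herba against Saposhnikoviae Radix differed in 10 cytosolic genes, each higher, and in none of the mitochondrial genes, where 12.0% were called, with GARS1 at 1.04 ± 0.15 (adjusted p = 3.52e-06) and WARS1 at 0.97 ± 0.09 (adjusted p = 7.84e-10).

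Other genes of the ATF4 and amino acid response, a list of 26, were read beside the synthetases. With Menthae Herba 20 of them rose and none fell (median 1.18), led by CHAC1, a glutathione-degrading enzyme (2.89 ± 0.17, adjusted p = 2.05e-16), and DDIT4, an inhibitor of mTORC1 signalling (2.44 ± 0.19, adjusted p = 1.01e-12). With Aucklandiae Radix 15 rose and 2 fell (median 0.74), led by the transcription factor ATF3 (1.72 ± 0.17, adjusted p = 1.25e-10) and by ASNS, asparagine synthetase (1.68 ± 0.13, adjusted p = 2.19e-13). PPP1R15A, the regulatory subunit that directs dephosphorylation of eIF2alpha, rose by 0.81 ± 0.10 with Menthae Herba (adjusted p = 1.00e-07) and by 0.95 ± 0.11 with Aucklandiae Radix (adjusted p = 8.98e-09). With Saengmaek-san 9 of 26 rose, with ASNS at 0.80 ± 0.12 (adjusted p = 5.97e-06). Soyo-san raised 2, ASNS and SESN2, and Saposhnikoviae Radix lowered 2, PSAT1 and SLC7A5. For comparison, of all genes tested 11.2% were called higher with Menthae Herba, 16.5% with Aucklandiae Radix, 9.05% with Saengmaek-san and 1.72% with Soyo-san. With Saposhnikoviae Radix 4.33% of all genes were called lower.

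The extracts that lowered the synthetases split this list. With Polygalae Radix 14 of 26 fell and 6 rose (median -0.43), and with Guibi-tang 12 fell and 6 rose (median -0.21). Of all genes 26.3% were called lower and 23.6% higher with Polygalae Radix, and 27.7% and 24.5% with Guibi-tang. Of the genes at or above 40 CPM in vehicle 47.3% and 48.8% were called lower. The shares of the list called higher were thus close to those of all genes. The shares called lower were near those of the genes at or above 40 CPM, though the list also holds genes below that level. PHGDH, the first enzyme of serine synthesis, fell by 2.89 with Polygalae Radix and 2.55 with Guibi-tang on the log2 scale (SE 0.23 and 0.19; adjusted p = 8.41e-14 and 1.33e-14). ASNS fell by 2.24 with Polygalae Radix (SE 0.15, adjusted p = 4.94e-16) and ALDH18A1, an enzyme of proline synthesis, by 1.87 with Guibi-tang (SE 0.09, adjusted p = 9.37e-20). PPP1R15A rose by 1.67 ± 0.11 with Polygalae Radix (adjusted p = 1.07e-15) and 1.38 ± 0.10 with Guibi-tang (adjusted p = 2.06e-14), while GCN1, an activator of the amino acid sensing kinase GCN2, fell by 1.28 and 1.14 in the same order (SE 0.19 and 0.17; adjusted p = 4.18e-07 and 2.28e-07).

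Translation factors of both compartments were read in the same way, against 50.0% of all genes called with Polygalae Radix and 52.2% with Guibi-tang (26.3% and 27.7% called lower). Of 10 cytosolic elongation and termination factors 8 fell with Polygalae Radix (median -1.24) and 8 with Guibi-tang (median -1.08), and none rose. All but EEF2K (36.4 CPM) had more than 40 CPM in vehicle, and of all genes at or above that level 47.3% and 48.8% were called lower. EEF2, the translocation factor, fell by 2.48 with Polygalae Radix and 2.46 with Guibi-tang (SE 0.09 and 0.08; adjusted p = 4.68e-24 and 3.46e-26), and EEF1A1, which delivers charged tRNA to the ribosome, by 2.07 and 1.79 (SE 0.10 and 0.09; adjusted p = 1.06e-19 and 4.86e-20). Of 14 mitochondrial translation factors 5 fell and 4 rose with Polygalae Radix (median -0.13), and 5 fell and 3 rose with Guibi-tang (median 0.02); TUFM, the mitochondrial counterpart of EEF1A1, fell by 1.52 and 1.23 (SE 0.21 and 0.18; adjusted p = 9.50e-08 and 2.58e-07). With Aucklandiae Radix 7 of 14 mitochondrial factors rose, led by the initiation factor gene MTIF3 (0.99 ± 0.13, adjusted p = 1.73e-07), and of the cytosolic factors 2 rose and 2 fell. With Menthae Herba 1 mitochondrial factor rose, MTIF3 (0.58 ± 0.12, adjusted p = 0.000375). Of all genes 16.5% were called higher and 17.6% lower with Aucklandiae Radix, and 11.2% were called higher with Menthae Herba.

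Interferon response genes were read because WARS1 is known to be interferon-inducible; of all genes 34.2% were called with Aucklandiae Radix, 24.0% with Menthae Herba, 50.0% with Polygalae Radix and 52.2% with Guibi-tang. Of 12 genes, 8 fell and 1 rose with Aucklandiae Radix (median -0.76), led by OAS3 (-1.99 ± 0.26, adjusted p = 5.46e-08), and 2 rose and 2 fell with Menthae Herba (median 0.24). With Polygalae Radix and Guibi-tang they went both ways: 6 rose and 5 fell (median 0.52), and 4 rose and 5 fell (median -0.00). IFIT2, an antiviral effector, rose by 3.22 ± 0.23 with Polygalae Radix and 2.86 ± 0.21 with Guibi-tang (adjusted p = 3.09e-15 and 1.49e-14) and GBP2, a guanylate-binding protein, fell by 2.76 and 3.79 (SE 0.12 and 0.11; adjusted p = 1.90e-21 and 1.34e-26).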

How the data were processed

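The authors deposited expected counts per Ensembl gene for 60 libraries in 1 table. The submitters' processing notes list RSEM 1.3.3, STAR 2.7.3a, FastQC 0.11.9 and Trim Galore 0.6.5 with hg38/GRCh38, and give no roles. The kit was directional per the labels' protocols; the strand setting of the counting is not given in the sources used here, and 14 of the 37 genes overlap another coding gene. Of all deposited values 9.62% were not whole, and they were rounded to whole numbers. Nothing in the labels says that replicates came from separate cultures, so p-values measure the spread between libraries, which may be technical.

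Genes were kept with edgeR's filterByExpr (minimum count 10, total 15, the 3 single-library doses of Okbyeongpung-san taken as 1 group), which left 18601. Libraries were scaled by TMM, and edgeR 4.0.16 (R 4.3.3) was fitted to 25 group means (35 residual degrees of freedom) with robust quasi-likelihood tests. P-values were adjusted by Benjamini-Hochberg over all 18601 genes in each of 32 comparisons. The same script was also run on simulated data in which few genes changed and no library was shifted towards short transcripts. That setting differs from these data, so nothing is concluded from it. Alternatives were DESeq2 1.42.0, RLE scaling, no low-count filter, only the compared groups, replicate number as a block, transcript-length slope as a covariate, removal of the 10 length-shifted libraries, and each library left out in turn; these last refits kept the dispersion trend and the genes of the full fit.

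The members, gene lists and tests were chosen with earlier results of these data known. Genes named were, per extract, the 3 cytosolic and 2 mitochondrial members with the largest change over vehicle among those called against both vehicle and low dose, members called opposite to most of their class, and the 2 most changed called genes of each context list; MARS1 with Aucklandiae Radix and Menthae Herba, NARS1 with Soyo-san, the members of the multi-tRNA synthetase complex, FARSA and other genes outside this rule were named after their values were seen. Gene positions come from GENCODE release 29 and promoter windows from RefSeq (GRCh38.p14). No columns were left unused.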

Additional observations from a re-analysis of the deposited data

Results flagged for a closer look

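The change between low and high dose differed between the 2 extracts of a library-name set, by a direct test of the difference, in each of 3 pairs. Polygalae Radix against Aucklandiae Radix differed in 30 of the 37 synthetase genes, Guibi-tang against Saengmaek-san in 32 and Menthae Herba against Saposhnikoviae Radix in 10. No group held more than 3 libraries. With each library left out in turn the counts ran from 29 to 31, from 31 to 33 and from 10 to 20, in the same order. The highest count for Menthae Herba against Saposhnikoviae Radix, 20, came without Saposhnikoviae Radix high replicate 2. That comparison gave fewer calls in a fit of only the compared groups, as listed below.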

How the results depend on the processing

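At the high doses of Polygalae Radix and Guibi-tang the counts of synthetase genes called against vehicle and against low dose stayed within 1.5 times the reported ones under every alternative run; no called gene that is named reversed its direction. Leaving out 1 library gave 31 to 31 calls against vehicle for Guibi-tang, 32 to 33 for Polygalae Radix, 15 to 18 for Menthae Herba, 19 to 23 for Aucklandiae Radix, 1 to 20 for Saposhnikoviae Radix, 8 to 13 for Saengmaek-san and 1 to 2 for Soyo-san. High against low dose it gave 30 to 33 (Polygalae Radix), 33 to 33 (Guibi-tang), 12 to 15 (Aucklandiae Radix), 11 to 16 (Menthae Herba), 0 to 9 (Saposhnikoviae Radix), 2 to 6 (Saengmaek-san) and 0 to 1 (Soyo-san), between extracts 29 to 31, 10 to 20 and 31 to 33, and for Okbyeongpung-san 0 to 14. At medium doses it gave 5 to 6 (Polygalae Radix), 1 to 2 (Aucklandiae Radix), 0 to 2 (Saengmaek-san) and 2 to 3 (Guibi-tang), and at low doses 0 (Polygalae Radix, Soyo-san), 0 to 18 (Saposhnikoviae Radix), 0 to 1 (Saengmaek-san) and 0 to 1 (Guibi-tang).

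Counts that moved by more than 1.5 times follow, with the reported count in parentheses; single doses are against vehicle. With no low-count filter the counts were at the high dose 0 (2) for Soyo-san, 3 (12) for Saengmaek-san, 1 (10) for Saposhnikoviae Radix, at the medium dose 4 (7) for Polygalae Radix, 0 (2) for Aucklandiae Radix, 0 (3) for Saengmaek-san, at the low dose 0 (1) for Guibi-tang, 0 (1) for Polygalae Radix, 0 (1) for Soyo-san, 0 (2) for Saengmaek-san, 1 (7) for Saposhnikoviae Radix, high against low dose 0 (1) for Soyo-san, 11 (18) for Aucklandiae Radix, 0 (6) for Saengmaek-san and over the pooled doses 1 (8) for Okbyeongpung-san. With only the compared groups they were at the high dose 10 (18) for Menthae Herba, 13 (2) for Soyo-san, 0 (10) for Saposhnikoviae Radix, at the medium dose 5 (0) for Menthae Herba, 12 (7) for Polygalae Radix, 6 (0) for Soyo-san, 9 (2) for Aucklandiae Radix, 6 (3) for Saengmaek-san, 9 (0) for Saposhnikoviae Radix, at the low dose 0 (1) for Guibi-tang, 5 (0) for Menthae Herba, 7 (1) for Polygalae Radix, 5 (1) for Soyo-san, 12 (0) for Aucklandiae Radix, 13 (2) for Saengmaek-san, 0 (7) for Saposhnikoviae Radix, high against low dose 8 (14) for Menthae Herba, 0 (1) for Soyo-san, 2 (6) for Saengmaek-san, between extracts 2 (10) for Menthae Herba against Saposhnikoviae Radix and over the pooled doses 20 (8) for Okbyeongpung-san. With the length slope as a covariate they were at the high dose 12 (2) for Soyo-san, 19 (12) for Saengmaek-san, 5 (10) for Saposhnikoviae Radix, at the medium dose 14 (3) for Guibi-tang, 4 (0) for Menthae Herba, 5 (0) for Soyo-san, 11 (2) for Aucklandiae Radix, 6 (3) for Saengmaek-san, 5 (0) for Saposhnikoviae Radix, at the low dose 6 (1) for Guibi-tang, 3 (0) for Menthae Herba, 8 (1) for Polygalae Radix, 9 (1) for Soyo-san, 6 (0) for Aucklandiae Radix, 9 (2) for Saengmaek-san, high against low dose 14 (6) for Saengmaek-san, 5 (0) for Saposhnikoviae Radix, between extracts 18 (10) for Menthae Herba against Saposhnikoviae Radix and over the pooled doses 13 (8) for Okbyeongpung-san. Without the length-shifted libraries they were at the high dose 8 (2) for Soyo-san, 5 (10) for Saposhnikoviae Radix, at the medium dose 8 (3) for Guibi-tang, 3 (0) for Menthae Herba, 13 (7) for Polygalae Radix, 4 (0) for Soyo-san, 11 (2) for Aucklandiae Radix, 11 (3) for Saengmaek-san, 5 (0) for Saposhnikoviae Radix, at the low dose 2 (1) for Guibi-tang, 3 (0) for Menthae Herba, 8 (1) for Polygalae Radix, 7 (1) for Soyo-san, 7 (0) for Aucklandiae Radix, 8 (2) for Saengmaek-san, 1 (7) for Saposhnikoviae Radix, high against low dose 10 (6) for Saengmaek-san and over the pooled doses 2 (8) for Okbyeongpung-san. DESeq2 gave at the medium dose 9 (3) for Guibi-tang, 1 (0) for Menthae Herba, 1 (0) for Soyo-san, 4 (2) for Aucklandiae Radix, 5 (3) for Saengmaek-san, 1 (0) for Saposhnikoviae Radix and at the low dose 2 (1) for Guibi-tang, 3 (1) for Polygalae Radix, 3 (1) for Soyo-san, 3 (0) for Aucklandiae Radix, 5 (2) for Saengmaek-san. RLE scaling gave at the low dose 1 (2) for Saengmaek-san. The cause of these moves was not tested.

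Replicate numbers were not taken as pairs. Same-numbered libraries of a set did not on average deviate together (mean correlation 0.0839, 0.0112, 0.00628 and -0.0117 in the 4 sets). That mean pools pairs within and between extracts, so it cannot show whether libraries of an extract were paired. Saengmaek-san replicate 1 was shifted towards short transcripts at all 3 doses, and Guibi-tang replicate 2 at the low and medium dose. Single same-numbered pairs ran from -0.616 to 0.599 in the set of Menthae Herba and Saposhnikoviae Radix. In the set of Guibi-tang and Saengmaek-san they ran from -0.537 to 0.578. Pairs within an extract were not examined apart from pairs between extracts. The replicate block gave 2 calls instead of 1 at the low dose of Soyo-san and kept all 70 named calls. Within sets, the replicate block lost 1 of 35, TARS2 high against low dose with Menthae Herba (adjusted p = 0.0605). That call was also lost with no low-count filter (0.341) and with only the compared groups (0.308). Of the 70 named calls, 19 were lost with no low-count filter and 10 with only the compared groups. The length slope as a covariate and removal of the length-shifted libraries lost 3 each, and RLE scaling lost 1. DESeq2 kept all 70. Over the refits without 1 library, 307 checks of named calls held and 56 did not.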
